A study of Drosophila melanogaster with 40 samples.

Results

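Cdk5 and Cdk5alpha were followed across 40 pools of fly heads, and no difference in either transcript between the drugs or the feeding schedules passed the test. These are the 2 genes, of 17558 in the count table, whose symbol is Cdk5 or Cdk5alpha. They were chosen by name. Cdk5 is a kinase of the cyclin-dependent family that does not drive the cell cycle and is best known from postmitotic neurons. It is inactive alone and needs an activating subunit, which in mammals is p35 or p39 and in Drosophila is Cdk5alpha. Loss of Cdk5alpha is the model of neurodegeneration that the study examined, and the pools measured here came from wild-type flies that carry the gene.

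RNA was sequenced from heads of 10-day-old wild-type (WT) males, with 13 to 21 heads in a pool, each pool being 1 sample. Flies received 10 µM 2-AAPA, an inhibitor of thioredoxin reductase and glutathione reductase, 100 µM mitoQ, a quinone antioxidant directed to mitochondria, or DMSO, the vehicle. Feeding lasted 10 days (chronic feeding) or 24 h (acute feeding). The chronic groups had 7 pools with 2-AAPA, 6 with mitoQ and 7 with DMSO, and the acute groups 6 with 2-AAPA, 7 with mitoQ and 7 with DMSO. The study removed outliers seen in a principal component analysis, and by its group sizes used fewer chronic DMSO pools than the table holds, without naming those left out. All 7 were kept here. The labels give 0.2% DMSO. Flies fed chronically lived on instant medium for the whole period, whereas flies fed acutely were on cornmeal-molasses food before the last day, so that schedule and food cannot be told apart. The study lists ethanol as the solvent of mitoQ, and a group fed ethanol alone is not among these samples, so drug and solvent cannot be told apart for mitoQ. No pool carried an altered Cdk5 or Cdk5alpha gene. In whole heads, fewer cells of a type and less RNA per cell cannot be told apart.

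Total counts lay between 24318573 and 30104079 per pool. The 8 neuron markers examined, such as elav and nSyb, were detected in every pool, with at least 938 reads for elav. Chronic DMSO replicate 7 stood apart, since its summed testis and ovary genes reached 208 CPM while the sum was at most 0.329 CPM in the other 39 pools, and 16259 features were detected in it against at most 14459 in the others. Comparisons of groups for Cdk5, Cdk5alpha, their ratio and the gene lists were repeated without it. Some of those values are given below, and others lie only within ranges over several pools left out singly. Comparisons of cell type markers are given only with this pool. The 16 relations among pools described below were not recomputed without it. The pools share no label for a batch, and nothing in the labels says how the flies of different pools were raised, so p-values measure the spread between these pools.

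In the BDGP6 annotation Cdk5 (FBgn0013762) lies on chromosome arm 2R between 15569528 and 15571417 on the minus strand, with 1 transcript of 4 exons and 1604 exonic bases. Cdk5alpha (FBgn0027491) lies on 2L between 10308131 and 10310956, also on the minus strand, with 2 transcripts whose 5 merged exons hold 2040 bases. Both exon lengths equal the feature lengths in the deposited table. The whole of Cdk5 lies inside CG30466 (FBgn0050466), a gene on the opposite strand, but only 11 exonic bases are shared. The strand setting of the read counting is not given in the sources used here. Reads of CG30466 that fall within the span of Cdk5, over those 11 bases or elsewhere, therefore cannot be told apart from reads of Cdk5. Cdk5alpha overlaps no annotated gene, and its nearest neighbours lie 86 and 94 bases away.

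Cdk5alpha RNA was the more abundant of the pair in every pool. Counts of Cdk5alpha ran from 2506 to 5723 with a median of 4565, and those of Cdk5 from 364 to 746 with a median of 606.5. Per length, in reads per kilobase of exon, scaled for depth (RPKM, computed on TMM-scaled library sizes), Cdk5alpha averaged 80.0 ± 7.78 RPKM (SD, n = 40) and Cdk5 13.98 ± 1.29 RPKM (SD, n = 40). The activator thus stood at rank 927 of the 11293 tested features that have a length, and the kinase at rank 4746, near the middle. The highest pool exceeded the lowest by 1.78-fold for Cdk5alpha and by 1.65-fold for Cdk5.

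**Figure D1:**
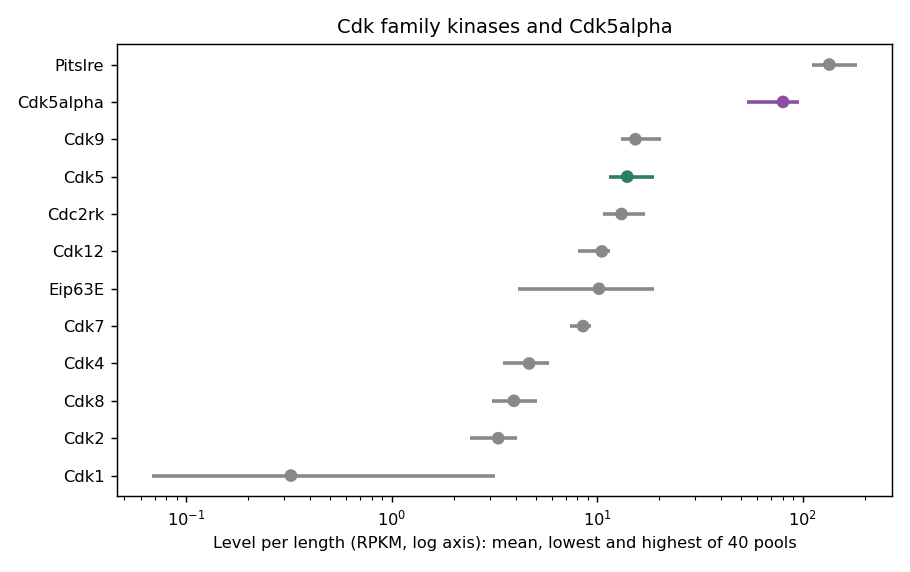
Levels per length, in RPKM on a log axis, of Cdk5, Cdk5alpha and the other Cdk family kinases, with the mean over 40 pools as a point and the lowest and highest pool as the ends of a line. Cdk5 sits at 13.98 RPKM, close to Cdk9 and Cdc2rk, and Cdk5alpha at 80.0 RPKM lies below Pitslre alone.

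Among its kinase relatives Cdk5 was one of the more abundant. The mean level per length was 134 RPKM for Pitslre, the fly Cdk11 homolog, 15.3 RPKM for Cdk9, a kinase of transcription elongation, and 13.1 RPKM for Cdc2rk, the homolog of mammalian Cdk10. Cdk9 exceeded Cdk5 in 33 of 40 pools and Cdc2rk in 11 of 40, so the levels of these 3 kinases overlapped between pools. Cdk12 at 10.5 RPKM, Eip63E, the homolog of the PFTAIRE kinases, at 10.2 RPKM and Cdk7 at 8.52 RPKM lay lower, and Eip63E was above Cdk5 in 3 pools. The cell cycle kinases were lower still, with Cdk4 at 4.65 RPKM, Cdk2 at 3.29 RPKM and the mitotic kinase Cdk1 at 0.323 RPKM. Cdk1 had 95 reads in chronic DMSO replicate 7 and 2 to 14 in the other 39 pools.

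The level of Cdk5 was almost the same in the 6 groups. Cdk5 had 12.4, 13.97 and 14.6 RPKM (lowest, median and highest pool) in chronic 2-AAPA flies. It had 13.1, 13.6 and 16.2 RPKM in chronic mitoQ flies. It had 12.5, 13.1 and 18.8 RPKM in chronic DMSO flies, where a single pool, replicate 4, set the top. The corresponding values in acute 2-AAPA flies were 13.7, 14.1 and 15.0 RPKM. In acute mitoQ flies they were 13.3, 13.8 and 14.7 RPKM. In acute DMSO flies they were 11.4, 13.7 and 16.2 RPKM, the widest of the acute groups at both ends. Ordered by mean log2 CPM, the groups were acute 2-AAPA at 4.52, chronic DMSO at 4.50, chronic mitoQ at 4.49, acute mitoQ at 4.48, acute DMSO at 4.48 and chronic 2-AAPA at 4.46. The means span 0.06 on the log2 scale and every pair of neighbours overlaps in its pools, so that this order has no support beyond the spread.

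Cdk5alpha was equally flat. It had 53.4, 84.9 and 89.7 RPKM (lowest, median and highest pool) in chronic 2-AAPA flies, in which replicate 5 alone set the lower end. It had 78.1, 80.7 and 84.5 RPKM in chronic mitoQ flies. It had 68.4, 85.5 and 88.3 RPKM in chronic DMSO flies. All 3 chronic medians lay between 80.7 and 85.5 RPKM. In acute 2-AAPA flies the values were 68.6, 77.7 and 83.5 RPKM, the lowest median of any group. In acute mitoQ flies they were 77.7, 81.2 and 81.7 RPKM. In acute DMSO flies they were 61.6, 80.8 and 95.3 RPKM, the last being the highest pool of all. By mean log2 CPM the order was chronic DMSO at 7.37, chronic mitoQ at 7.37, acute mitoQ at 7.36, acute DMSO at 7.36, chronic 2-AAPA at 7.32 and acute 2-AAPA at 7.28, a span of 0.09, again with every pair of neighbours overlapping.

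**Figure D2:**
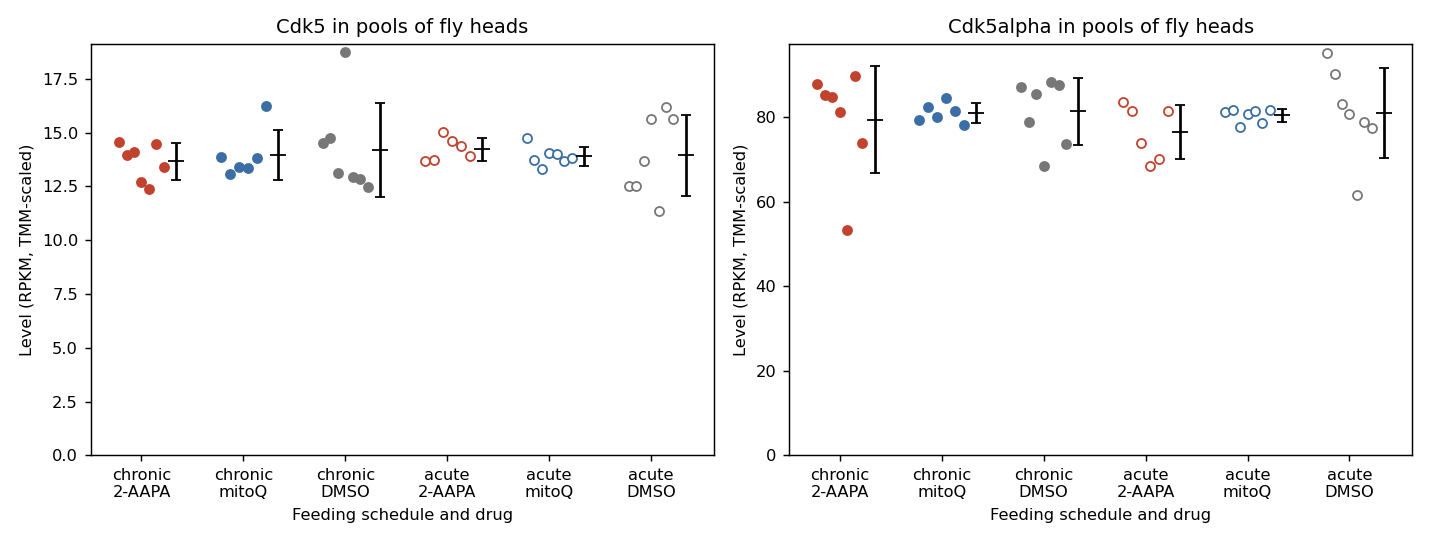
Level of Cdk5 (left) and Cdk5alpha (right) in RPKM in each of 40 pools of heads, by schedule and drug, with filled circles for chronic and open circles for acute feeding and the mean ± SD of each group beside its pools. The pools of all 6 groups overlap for both genes, around 13.98 RPKM for Cdk5 and 80.0 RPKM for Cdk5alpha, and mitoQ pools lie close together for Cdk5alpha.

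In chronic compared with acute flies, over the 3 drugs, both transcripts stayed within narrow limits. This comparison asks whether the longer schedule changes the transcripts whatever the drug. Cdk5 was at 0.994 times its acute level, with a log2 fold change of -0.01 ± 0.04 (SE, 20 chronic and 20 acute pools; edgeR's quasi-likelihood test, adjusted p = 0.940). The 95% interval of that fold ran from 0.935 to 1.06. Cdk5alpha was at 1.02 times its acute level, with a log2 fold change of 0.02 ± 0.05 (SE, 20 chronic and 20 acute pools; edgeR's quasi-likelihood test, adjusted p = 0.823), and an interval from 0.949 to 1.09. Neither gene passed in this comparison, in which 8.64% of the 11477 features tested passed, 2.82% higher and 5.82% lower in chronic flies.

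The same held within each drug. Chronic against acute feeding gave a log2 fold change for Cdk5 of -0.06 ± 0.08 in 2-AAPA flies, 0.01 ± 0.08 in mitoQ flies and 0.03 ± 0.08 in DMSO flies (SE). For Cdk5alpha it gave 0.05 ± 0.09 in 2-AAPA flies, 0.01 ± 0.09 in mitoQ flies and 0.01 ± 0.08 in DMSO flies (SE). Without chronic 2-AAPA replicate 5 the 2-AAPA value for Cdk5alpha was 0.13 ± 0.07 (log2 fold change, SE, adjusted p = 0.424 in edgeR's test). With all pools no change passed the test, with the smallest adjusted p of these 6 at 0.816 in edgeR's test. Of all features, 4.21% passed in 2-AAPA flies, 0.157% in mitoQ flies and 5.11% in DMSO flies. The 586 features behind the DMSO share were 137 without chronic DMSO replicate 7, 126 with the replicate number as a block and 33 in a fit on those 2 groups alone.

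The drugs were next set against DMSO to ask whether feeding either drug changes the transcript of the kinase or its activator. Redox state was not measured in these pools. Over both schedules no difference among the drugs was detected, with adjusted p = 0.978 for Cdk5 and 0.832 for Cdk5alpha in edgeR's quasi-likelihood test on 2 coefficients, in which 0.00871% of all features passed. After chronic feeding, 2-AAPA gave a log2 fold change against DMSO of -0.06 ± 0.08 for Cdk5 and -0.03 ± 0.08 for Cdk5alpha (SE). After chronic feeding, mitoQ gave -0.02 ± 0.08 for Cdk5 and -0.01 ± 0.09 for Cdk5alpha (SE). None of these 4 passed, where 2.13% of all features passed for 2-AAPA and 1.82% for mitoQ. Those counts over all features, 245 and 209, were both 0 without chronic DMSO replicate 7, whereas Cdk5 and Cdk5alpha passed neither with it nor without it.

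After acute feeding, 2-AAPA gave Cdk5alpha a log2 fold change against DMSO of -0.08 ± 0.09 (SE, 6 and 7 pools; adjusted p = 0.941 in edgeR's test). Its 95% interval ran from 0.836 to 1.07 times the DMSO level. Without acute DMSO replicate 5 the log2 fold change was -0.13 ± 0.09 (SE, unadjusted p = 0.145 in edgeR's test). For Cdk5, acute 2-AAPA gave 0.03 ± 0.08, and acute mitoQ gave -0.004 ± 0.08 for Cdk5 and -0.01 ± 0.08 for Cdk5alpha (log2 fold change against DMSO, SE). Of all features 0.0261% passed for acute 2-AAPA and 0% for acute mitoQ, where 177 features had an unadjusted p under 0.05 and DESeq2 called 1.

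The 2 drugs also did not separate from each other. 2-AAPA against mitoQ gave, after chronic feeding, a log2 fold change of -0.03 ± 0.08 for Cdk5 and -0.03 ± 0.09 for Cdk5alpha, and after acute feeding 0.03 ± 0.08 for Cdk5 and -0.07 ± 0.09 for Cdk5alpha (SE). In edgeR's test 0% of all features passed at either schedule, with 958 features at an unadjusted p under 0.05 after chronic and 220 after acute feeding, and 3 and 0 features called by DESeq2. Whether a drug difference itself differed between schedules was tested as an interaction, with adjusted p = 0.9998 for both genes, 0% of features passing, 704 at an unadjusted p under 0.05 and 39 called by DESeq2.

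**Figure D3:**
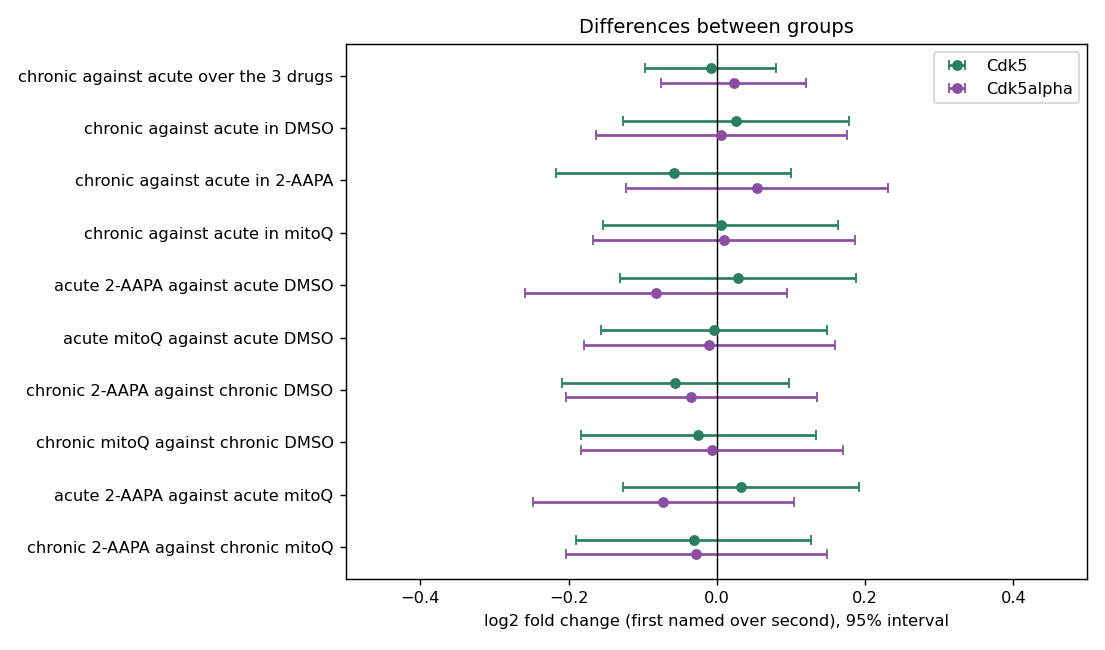
Log2 fold change of Cdk5 and Cdk5alpha, the first named group over the second, with its 95% interval, in the comparison over the 3 drugs and in 9 comparisons of 2 groups. All 20 intervals include 0, and their ends lie between -0.26 and 0.23.

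Over all 12 tests of each gene, 0 reached an adjusted p under 0.05 in edgeR, 0 an unadjusted p under 0.05, and 0 were called by DESeq2 or by limma. The comparisons with DMSO share their DMSO pools, so their values are not independent. In the 9 comparisons of 2 groups the 95% intervals allowed folds between 0.860 and 1.14 for Cdk5 and between 0.836 and 1.17 for Cdk5alpha, which bounds the differences this design leaves room for but does not show that the groups are alike.

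The spread among pools was small for both genes but not the same in every group. The biological coefficient of variation from the fit was 0.101 for Cdk5 and 0.115 for Cdk5alpha, lower than in most features, at the 11.8 and 21.8 percentile of all those tested. Among the 500 features closest in level to each gene it was at the 18.6 percentile for Cdk5 and the 32 percentile for Cdk5alpha. Counting error made up 19.0% of the within-group variance of Cdk5 and 1.89% of that of Cdk5alpha, so depth adds little to the spread of the activator. Differences between the 6 groups took 2.20% of the variance in log2 CPM of Cdk5 and 4.08% of that of Cdk5alpha. For Cdk5alpha the SD of log2 CPM was 0.26 in chronic 2-AAPA, 0.04 in chronic mitoQ, 0.14 in chronic DMSO, 0.12 in acute 2-AAPA, 0.03 in acute mitoQ and 0.20 in acute DMSO flies. The mitoQ pools were thus the closest together, though no test of the spread was made. For Cdk5 the SD was 0.09 in chronic 2-AAPA, 0.11 in chronic mitoQ, 0.20 in chronic DMSO, 0.05 in acute 2-AAPA, 0.05 in acute mitoQ and 0.20 in acute DMSO flies.

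A few pools stood apart in one or both genes. Chronic DMSO replicate 4 had the highest Cdk5 of all pools, 18.8 RPKM, together with 68.4 RPKM of Cdk5alpha, the lowest of its group, and it also had the lowest ribosomal RNA share, 0.577%. Acute DMSO replicate 5 was low for both genes, with 11.4 RPKM of Cdk5 and 61.6 RPKM of Cdk5alpha, and its TMM factor was 0.815. Chronic 2-AAPA replicate 5 had the lowest Cdk5alpha of all pools, 53.4 RPKM, beside 12.4 RPKM of Cdk5. Chronic DMSO replicate 7, the pool with testis transcripts, had the lowest Cdk5 of its group, 12.5 RPKM, beside 73.7 RPKM of Cdk5alpha.

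The balance between activator and kinase was next taken within each pool, where depth and scaling cancel. Cdk5alpha exceeded Cdk5 by 5.77 ± 0.759 fold per length (SD, n = 40), with 3.65 in the lowest and 7.60 in the highest pool. As ratios per length the groups had 4.31, 6.03 and 6.38 (lowest, median and highest pool) in chronic 2-AAPA, 4.82, 5.93 and 6.32 in chronic mitoQ, and 3.65, 6.0 and 6.83 in chronic DMSO flies. They had 4.69, 5.39 and 6.10 in acute 2-AAPA, 5.51, 5.82 and 5.94 in acute mitoQ, and 4.86, 5.41 and 7.60 in acute DMSO flies. All 6 groups overlapped.

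**Figure D4:**
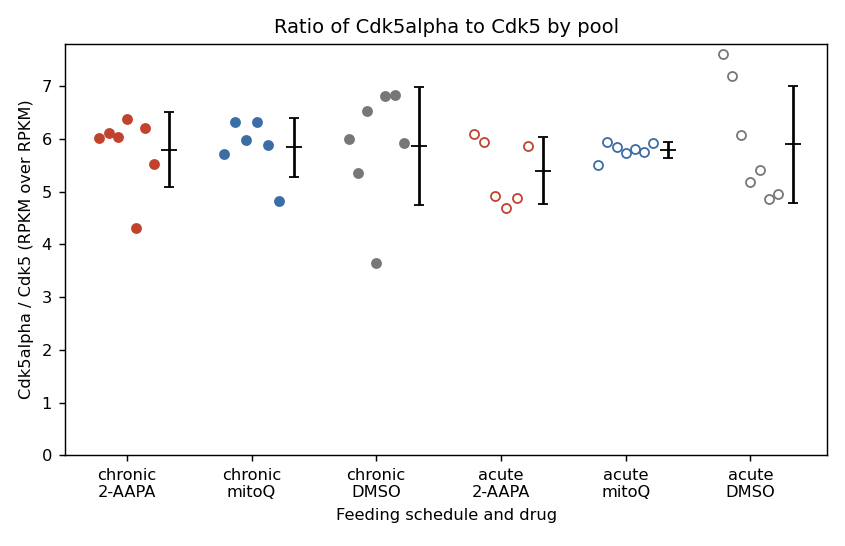
Ratio of Cdk5alpha to Cdk5, RPKM over RPKM, in each pool, by schedule and drug, with filled circles for chronic and open circles for acute feeding and the mean ± SD of each group beside its pools. Pools run from 3.65 to 7.60, and the acute mitoQ pools are confined to 5.51 to 5.94.

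No schedule or drug moved the ratio beyond its spread. On the log2 scale, before division by length, chronic pools averaged 2.87 ± 0.22 and acute pools 2.85 ± 0.18 (SD, n = 20 each; difference 0.03, two-sided permutation test with 100000 resamples, p = 0.678). The 9 comparisons of 2 groups were made with two-sided exact permutation tests. The largest difference was that of acute 2-AAPA against acute DMSO, -0.11 ± 0.12 (SE, n = 6 and 7; exact p = 0.374), and the smallest p was that of acute 2-AAPA against acute mitoQ, -0.11 ± 0.07 (SE, n = 6 and 7; exact p = 0.135). After adjustment over the 10 ratio comparisons all adjusted p were 0.990.

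Relations among the pools of a group were also examined. For this, each pool was taken as its deviation from its group mean, and 16 relations between Cdk5, Cdk5alpha, their ratio and other measures of the pool were computed over the 40 pools, with labels permuted within groups (100000 permutations, smallest possible p 1e-05). These measures were chosen after the values were seen. Between the 2 genes Pearson's r was -0.003 (permutation p = 0.987) and Spearman's rho -0.17 (permutation p = 0.367, adjusted p = 0.391), and r = -0.02 without the 2 pools farthest from the median, chronic DMSO replicate 4 and acute DMSO replicate 5. Within single groups r ran from -0.80 to 0.81.

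Cdk5 and its activator moved opposite ways with the summed level of the 8 neuron markers. Cdk5 had r = -0.43 (permutation p = 0.0195, adjusted p = 0.0261) and rho = -0.53 (permutation p = 0.00288, adjusted p = 0.00461), and r = -0.56 without the 2 farthest pools. Cdk5alpha had r = 0.54 (permutation p = 0.00800, adjusted p = 0.0128) and rho = 0.58 (permutation p = 0.000710, adjusted p = 0.00189), and r = 0.51 without them. The ratio had r = 0.69 (permutation p = 0.000100, adjusted p = 0.000533) and rho = 0.74 (permutation p = 1e-05, adjusted p = 8e-05), and r = 0.75 without them. Pools with more neuron marker RNA thus had more Cdk5alpha and less Cdk5, and each of these 3 signs was seen in 5 of the 6 groups. Such values are not particular to neuron markers. Of 8043 single features averaging 3 or more in log2 CPM, 5% had r above 0.60 with Cdk5alpha. The relation to glia, photoreceptor and blood cell markers was not computed. Neuron markers themselves did not pass the chronic against acute comparison, with 0 of 8 called by edgeR, DESeq2 or limma. There edgeR called 8.64% of all features. Of the neuron markers, 2 had an unadjusted p under 0.05, and they had a median log2 fold change of 0.15 over all 8, against 0.01 over all features. Their summed level ran from 2469 to 5764 CPM in chronic and from 2427 to 3842 CPM in acute pools, and no marker was at 0 in any pool. Chronic 2-AAPA replicate 6 alone set the top, and the next highest pool had 4301 CPM. Mitochondrial genome transcripts took 4.37% of the counts of that pool and at most 0.439% in the others. That pool was 1 of the 2 left out above, but the comparisons of groups were not repeated without it.

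Both genes also moved with CG30466, the gene that surrounds Cdk5 on the other strand. CG30466 is one of the most variable features, with a biological coefficient of variation of 0.905, at the 98.1 percentile, and counts from 4 to 330. Cdk5 fell as CG30466 rose, with r = -0.68 (permutation p = 8e-05, adjusted p = 0.000533) and rho = -0.68 (permutation p = 4e-05, adjusted p = 0.000213), and r = -0.56 without chronic DMSO replicate 4 and chronic mitoQ replicate 6. Cdk5alpha, which lies on another chromosome arm, rose with CG30466, with r = 0.48 (permutation p = 0.00140, adjusted p = 0.00320) and rho = 0.56 (permutation p = 0.000710, adjusted p = 0.00189), and r = 0.43 without those pools. The ratio had r = 0.80 (permutation p = 1e-05, adjusted p = 0.000160) and rho = 0.79 (permutation p = 1e-05, adjusted p = 8e-05), r = 0.76 without those pools, and the same sign in 6 of 6 groups. CG30466 itself did not pass between chronic and acute feeding, at 0.89 ± 0.43 (log2 fold change, SE, adjusted p = 0.211 in edgeR's test). The part of reads over the span that the 2 genes share, in exons or elsewhere, in the relation with Cdk5 was not tested.

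**Figure D5:**
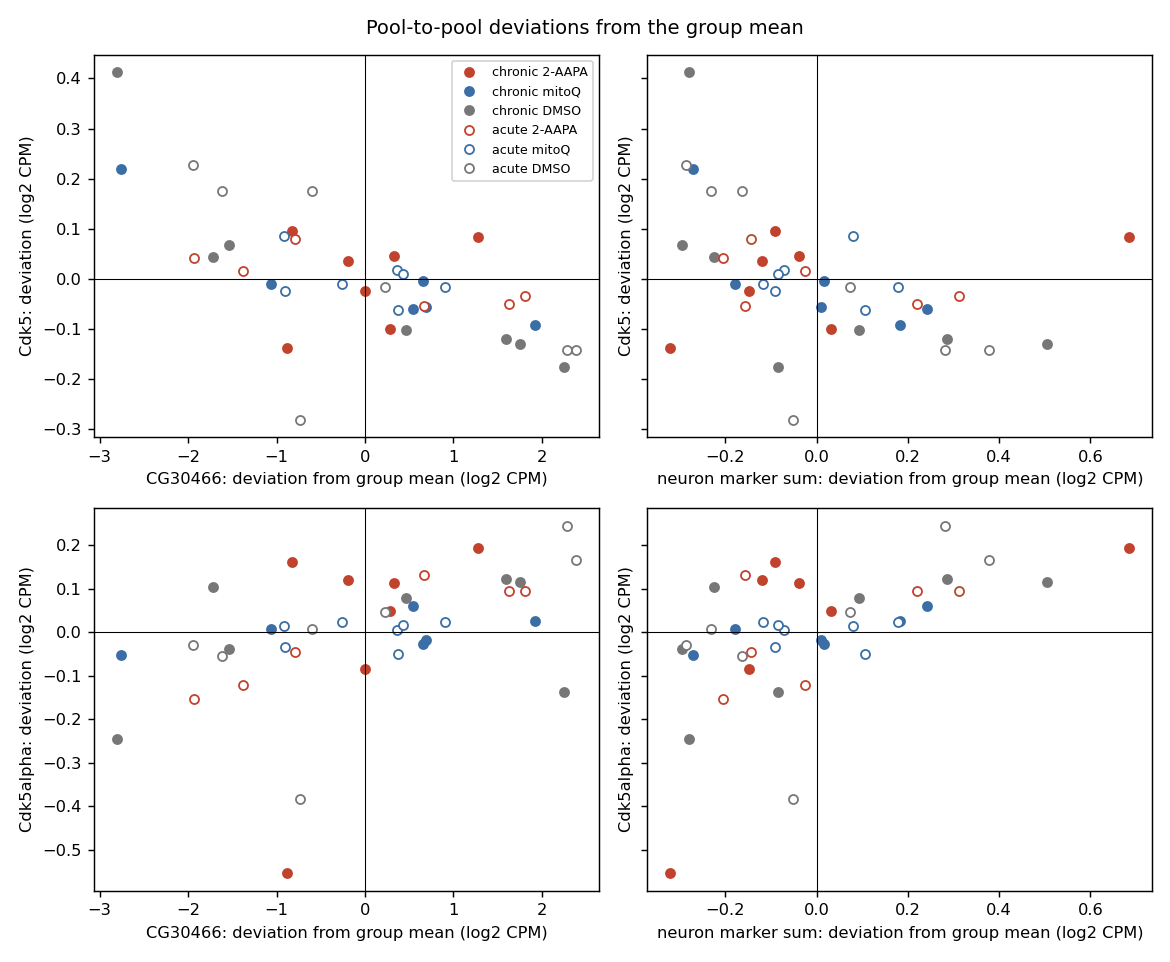
Deviation of each of 40 pools from its group mean in log2 CPM, for Cdk5 (top row) and Cdk5alpha (bottom row) against CG30466 (left) and the summed neuron markers (right), coloured by drug and filled for chronic feeding. Cdk5 slopes down on both x axes (r = -0.68 and -0.43) and Cdk5alpha slopes up (r = 0.48 and 0.54).

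Other measures of the pool moved with the genes as well. Cdk5 was lower where the ribosomal RNA share was higher, with r = -0.65 (permutation p = 0.000470, adjusted p = 0.00150) and rho = -0.52 (permutation p = 0.00271, adjusted p = 0.00461), r = -0.49 without the 2 farthest pools, and the same sign in 6 of 6 groups. It was also lower where fat body markers were higher, with r = -0.67 (permutation p = 0.000740, adjusted p = 0.00197) and rho = -0.54 (permutation p = 0.000590, adjusted p = 0.00189), and r = -0.47 without the 2 farthest pools. Cdk5alpha was lower where muscle markers were higher, with r = -0.60 (permutation p = 0.00191, adjusted p = 0.00382) and rho = -0.48 (permutation p = 0.00492, adjusted p = 0.00716), but r = -0.29 without chronic DMSO replicate 4 and chronic 2-AAPA replicate 5, so that much of it rests on those pools. Of these marker lists, 1 of 5 fat body genes tested, the storage protein gene Lsp2, passed in the chronic against acute comparison, at -1.88 in log2 fold change (adjusted p = 5.65e-06 in edgeR's test). In that test 8.64% of all features passed. The other fat body genes tested were not called, with Yp1 at -0.49, to at -0.20, Apoltp at -0.12 and apolpp at 0.06. Of 4 muscle genes tested edgeR called 0, all 4 had an unadjusted p under 0.05, and DESeq2 called 3. Summed fat body markers ran from 1083 to 8465 CPM in chronic pools and from 4804 to 10934 CPM in acute pools, and summed muscle markers from 2074 to 3015 CPM in chronic and from 1859 to 2360 CPM in acute pools. The remaining relations of single genes did not pass by Pearson's r, at 0.32 for Cdk5 with muscle, 0.16 for Cdk5alpha with fat body and 0.20 for Cdk5alpha with the ribosomal RNA share (adjusted permutation p = 0.108, 0.342 and 0.305), with rho of 0.27, 0.07 and 0.34 (adjusted permutation p = 0.140, 0.685 and 0.0566). The ratio had r = 0.56 with fat body, -0.66 with muscle and 0.57 with the ribosomal RNA share (adjusted permutation p = 0.0232, 0.00150 and 0.00884), rho of 0.34, -0.51 and 0.51 (adjusted permutation p = 0.0566, 0.00461 and 0.00461), and r = 0.24, -0.38 and 0.42 without the 2 farthest pools of each. The part of these cell types and of the ribosomal RNA share in the levels was not tested.

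The features that most resembled each gene over the 40 pools are given as a description. Among 8043 tested features that averaged 3 or more in log2 CPM, deviations like those of Cdk5 were seen in AP-2mu, a subunit of the clathrin adaptor AP-2, at r = 0.85, CG3529 at r = 0.85, scramb1, a phospholipid scramblase, at r = 0.84, the signalling adaptor Shc at r = 0.83 and the phosphoinositide phosphatase mtm at r = 0.83. For Cdk5alpha they were FBgn0086377, listed with no symbol, at r = 0.88, CG5447 at r = 0.85, CG1316 at r = 0.85, Uev1A, a variant ubiquitin-conjugating enzyme, at r = 0.84 and lqf, the fly epsin, at r = 0.83. None of them is shared between the lists. By Spearman's correlation CG3529 and mtm ranked 32 and 31 for Cdk5, and CG5447 and CG1316 ranked 124 and 85 for Cdk5alpha. The others named ranked between 2 and 14. All of these points share libraries and depth, and 5% of the features had r above 0.64 with Cdk5 and above 0.60 with Cdk5alpha, so many features deviated alongside. Cdk5alpha ranked 4807 of 8043 for likeness to Cdk5, and Cdk5 4033 for likeness to Cdk5alpha.

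Genes around the kinase were examined in 4 lists, the other Cdk family kinases, the cyclins, the calpains and calcineurin, and homologs of mammalian Cdk5 targets and partners. Between chronic and acute feeding 4 of the 61 genes tested passed, or 6.56%, near the 8.64% of all features. None of the 10 kinases was called by edgeR or DESeq2, and 3 had an unadjusted p under 0.05. They were Eip63E, at 0.23 ± 0.10 in log2 fold change, Cdk7 at -0.06 ± 0.03 and Cdk8 at -0.11 ± 0.05 (SE), with adjusted p of 0.168, 0.222 and 0.208 in edgeR's test. The kinases had a median log2 fold change of 0.00, against 0.01 over all features.

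Among 13 cyclins, 2 fell and 0 rose, or 15.4% called, beside 8.64% of all features, 5.82% lower and 2.82% higher in chronic flies. The cyclins had a median log2 fold change of 0.03, against 0.01 over all features. CycC, the partner of Cdk8, fell by 0.15 on the log2 scale (SE 0.04, adjusted p = 0.00424 in edgeR's test), with 3.77 ± 0.09 log2 CPM in chronic and 3.92 ± 0.12 log2 CPM in acute pools (SD, n = 20 each). CycH, the partner of Cdk7, fell by 0.15 (SE 0.05, adjusted p = 0.0499) but its adjusted p was between 0.0502 and 0.182 in 8 of 12 alternatives. CycK, the partner of Cdk12, had -0.06 ± 0.02 (SE, adjusted p = 0.107). The fly activator Cdk5alpha is not itself a cyclin by sequence family and is not counted here.

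Calpains are proteases that cleave p35 in mammals, and calcineurin is a phosphatase, both controlled by calcium. Of 9 such genes tested, of 10 listed, 2 rose and 0 fell, or 22.2% called. Of all features 8.64% were called, 2.82% higher and 5.82% lower in chronic flies. The median log2 fold change of these genes was 0.07, against 0.01 over all features. CanA1, a catalytic subunit of calcineurin, rose by 0.16 ± 0.05 (log2 fold change, SE, adjusted p = 0.0235 in edgeR's test), with 3.49 ± 0.15 log2 CPM in chronic and 3.33 ± 0.14 log2 CPM in acute pools (SD, n = 20 each). Within 2-AAPA flies, whose pools are part of that comparison, CanA1 passed at 0.29 (adjusted p = 0.0314 in edgeR's test), but not with the replicate number as a block. It did not pass in DMSO flies at 0.10 or in mitoQ flies at 0.11 (adjusted p = 0.648 and 0.998 in edgeR's test). The regulator of calcineurin sra rose by 0.13 ± 0.04 (SE, adjusted p = 0.0415). That call was lost in 4 of 12 alternatives, without acute DMSO replicate 5, without chronic DMSO replicate 7, with library totals alone and in the limma fit (adjusted p between 0.0524 and 0.101). CalpB had 0.15 ± 0.07 (SE, adjusted p = 0.147).

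None of the 29 homologs of Cdk5 targets and partners was called by edgeR or DESeq2, where edgeR called 8.64% of all features. Of the 29, 2 had an unadjusted p under 0.05, and the median log2 fold change was 0.07, against 0.01 over all features. The genes with the smallest p were p53 at -0.09 ± 0.03, the endocytic protein gene EndoA at 0.15 ± 0.06 and Lis-1, a dynein regulator, at 0.15 ± 0.08 (log2 fold change, SE), at adjusted p of 0.0995, 0.149 and 0.274 in edgeR's test.

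In DMSO flies, chronic against acute feeding called 2 of 61 genes of the lists (3.28%, beside 5.11% of all features), the mitotic cyclins CycB at 1.69 ± 0.45 and CycB3 at 1.09 ± 0.33 (log2 fold change, SE, adjusted p = 0.0196 and 0.0460 in edgeR's test). Both calls rested on chronic DMSO replicate 7, which had 485 reads of CycB against 12 to 57 in the other 39 pools and 214 reads of CycB3 against 15 to 46. Without that pool CycB had 0.22 ± 0.21 and CycB3 0.16 ± 0.16 (adjusted p = 0.781 and 0.813). In 2-AAPA flies 1 of 61 passed (1.64%, beside 4.21% of all features), which was CanA1. There DESeq2 and limma each called 2, of which 1 was a Cdk family kinase. The fit with a replicate block called 0. In mitoQ flies 0 of 61 passed (beside 0.157% of all features), with 2 at an unadjusted p under 0.05 and 0 called by DESeq2. In the comparisons of a drug with DMSO, of 2-AAPA with mitoQ, over drugs and for the interaction, 0 of 61 passed in edgeR and in DESeq2, with at most 10 at an unadjusted p under 0.05, in chronic 2-AAPA against chronic DMSO.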

How the data were processed

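Poly-A RNA of 40 pools of heads was measured. The authors aligned directional reads to BDGP6 in the nf-core pipeline, allowing many locations per read, counted genes with featureCounts and transposon families with TEcount, and deposited whole-number counts without normalization. The versions of the counters and their strand setting are not given in the sources used here. All samples were mapped to groups by their labels, and no 2 libraries of 780 pairs were identical.

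From these counts, edgeR 4.0.16 in R 4.3.3 fitted all features together (filterByExpr on 6 groups, 11477 kept, TMM factors, robust glmQLFit, quasi-likelihood F test, Benjamini-Hochberg adjustment over all features, threshold 0.05). The comparison over drugs used schedule and drug as terms, the others a model of the 6 groups. Log2 CPM has a prior count of 2. The fitting was tested on simulated data. The ratio was tested by permutation (scipy 1.17.1). Named genes are Cdk5 and Cdk5alpha, from each list every gene passing in chronic against acute feeding and otherwise the smallest p up to 3, and the 5 features most like each gene. The genes and lists were chosen with earlier results of these data known. CycB and CycB3 were named after their values were seen. Alternatives were DESeq2 1.42.0, its size factors, library totals, no filter, a replicate block, the ribosomal RNA share as covariate, fits on 2 groups, removal of single pools, and log2 values with a pedestal of 2, cyclic LOESS and a floor of 1.75, tested in limma 3.58.1. This last takes the normalization of the study, but not its removal of outliers, its CV filter or its tests. Removal of chronic DMSO replicate 4, acute DMSO replicate 5 and chronic 2-AAPA replicate 5 was added after the data were seen. The comparison columns of the study were not used.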

Additional observations from a re-analysis of the deposited data

Results flagged for a closer look

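The pool farthest from the others of its group was marked where its gap to the nearest pool exceeded Dixon's 95% critical value, in 18 groups of values (2 genes and their log2 ratio in 6 groups). By chance about 1 in 20 groups is marked, and 6 of the 18 were. Chronic DMSO replicate 4 had a Cdk5 of 4.91 log2 CPM, the next highest pool having 4.57, and a log2 ratio of Cdk5alpha to Cdk5 of 2.21, the next lowest being 2.76. Chronic mitoQ replicate 6 had a Cdk5 of 4.71 log2 CPM, the next highest having 4.48, and a log2 ratio of 2.61, the next lowest being 2.86. Chronic 2-AAPA replicate 5 had a Cdk5alpha of 6.77 log2 CPM, the next lowest having 7.24, and a log2 ratio of 2.45, the next lowest being 2.81. The ratio shares its counts with the single genes, so these marks are not independent. All 3 pools are in chronic groups.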

How the results depend on the processing

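Neither gene passed the test in any of 306 alternative values (12 results for each gene under up to 13 settings). The smallest adjusted p was 0.529 for Cdk5 and 0.424 for Cdk5alpha, and log2 fold changes stayed between -0.13 and 0.13. In 24 of them the sign changed, at values smaller in size than their standard errors. For Cdk5 in chronic against acute feeding over the 3 drugs these were 0.0013 with DESeq2, 0.0022 with its size factors in edgeR and 0.019 with library totals alone. With the ribosomal RNA share as covariate Cdk5 had -0.039 for chronic against acute feeding in DMSO, -0.034 in mitoQ, 0.048 for chronic 2-AAPA against DMSO and 0.059 for chronic 2-AAPA against mitoQ. With library totals alone, acute mitoQ against DMSO gave 0.022 for Cdk5 and 0.015 for Cdk5alpha, and chronic mitoQ against DMSO 0.011 for Cdk5alpha. Cyclic LOESS with limma gave 0.0069 for Cdk5 in acute mitoQ against DMSO and -0.0015 for Cdk5alpha in chronic against acute mitoQ.

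Chronic DMSO replicates 4 and 7, chronic 2-AAPA replicate 5, acute DMSO replicate 5 and acute 2-AAPA replicate 6 were left out one at a time. All but the last of them turned the sign of some uncalled value. The log2 fold change of Cdk5 then lay between -0.035 and 0.010 over the 3 drugs, -0.053 and 0.063 for chronic against acute DMSO, -0.0012 and 0.043 for acute 2-AAPA against DMSO, -0.065 and 0.023 for chronic 2-AAPA against DMSO, and -0.055 and 0.054 for chronic mitoQ against DMSO. For Cdk5alpha it ran between -0.043 and 0.044 for chronic against acute DMSO, 0.054 and 0.13 for chronic against acute 2-AAPA, -0.13 and -0.069 for acute 2-AAPA against DMSO, -0.072 and 0.042 for chronic 2-AAPA against DMSO, and -0.028 and 0.049 for chronic 2-AAPA against mitoQ. The difference in log2 ratio ran between -0.031 and 0.096 for chronic against acute DMSO, -0.11 and 0.068 for chronic 2-AAPA against DMSO, -0.095 and 0.021 for chronic mitoQ against DMSO, and -0.016 and 0.053 for chronic 2-AAPA against mitoQ. In 60 alternatives of the 10 ratio comparisons none passed.

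The count of cyclins called was 1 in place of 2 with DESeq2's size factors, library totals alone, no filter, the replicate block and the ribosomal RNA share as covariate, and 1 to 2 with a pool left out. That of calpains and calcineurin was 1 with library totals alone and with cyclic LOESS and limma, and 1 to 2 with a pool left out. That of all 4 lists was 2 with library totals alone and 2 to 4 with a pool left out. The cause was not tested. Over all features the counts moved more, most for chronic against acute DMSO (586, and 33 to 2845) and for chronic 2-AAPA and mitoQ against DMSO (245 and 209, and 0 to 2299 and 0 to 2152), the highest without the filter, and the 586 were 137 without chronic DMSO replicate 7. The other counts that moved beyond 1.5 times were 1826 over the 3 drugs without the filter (992), 13 to 34 in mitoQ (18), 0 to 8 for acute 2-AAPA against DMSO (3), 0 to 1672 over both schedules (1), and up to 39 for the interaction, 3 for chronic and 2 for acute 2-AAPA against mitoQ and 1 for acute mitoQ against DMSO (0 each).

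Same-numbered pools of different groups did not deviate together in the median (median r -0.09 in 96 pairs, -0.0095 in 570 other pairs). Single same-numbered pairs ran from -0.81 to 0.85, so a median cannot tell whether some of them share more than a number. With the replicate block Cdk5 had 0.0012 in acute mitoQ against DMSO and Cdk5alpha -0.00094 in chronic against acute mitoQ, and both stayed uncalled in every comparison. The block called 945 features over the 3 drugs (992 without it), 126 for chronic against acute DMSO (586 without it), and 0 for chronic 2-AAPA and mitoQ against DMSO. Spearman's correlation put the likeness values between 0.65 and 0.81, and without chronic DMSO replicate 7 Pearson's r lay between 0.82 and 0.88. Depth limits Cdk5 more than Cdk5alpha, since its counts are lower.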
